A study of Mus musculus with 14 samples.

Results

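The effect of microglia ablation inside demyelinated lesions was read from 7 of the 14 libraries of the series, 4 lesion libraries of ablated mice and 3 lesion libraries of non-ablated mice, taken by their sample titles. All mice carried Cx3cr1-CreER, a recombinase that tamoxifen activates in cells using the Cx3cr1 promoter, a class that holds microglia, other macrophages and monocytes. Ablated mice also carried Rosa26-iDTR+/-, which lets the recombinase switch on a diphtheria toxin receptor, and non-ablated mice were Rosa26-iDTR-/-. Both groups received tamoxifen for 3 days, lysophosphatidylcholine (LPC, a detergent-like lipid that destroys myelin at the injection site) in the ventral spinal cord after a wait of 4 to 6 weeks, and diphtheria toxin on each day until tissue was taken, 5 days past the LPC injection. The toxin and the recombinase were therefore common to both groups, and the receptor allele was the labelled difference. Lesion and distal pieces were cut out by microdissection, labelled LCM. A library pools the tissue of 3 to 5 males and females, and the pool is the replicate. Libraries are named by the numbers in their titles, 2, 4 and 6 for non-ablated and 8, 10, 12 and 14 for ablated lesions. Values are listed in that order. The age labels give 3, 5 and 7 months for the former and 9, 11, 13 and 15 months for the latter. Over the whole series these labels rise by 1 month with each library number, so they may be a running number and not true ages, and every value from a fit with labelled age carries that doubt. Labelled age and ablation cannot be told apart in these 7 libraries.

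Microglia are macrophages that reside in brain and spinal cord, long-lived cells that depend on the growth factor receptor Csf1r and keep their identity through a set of transcription factors that includes Sall1 and Mef2c. After myelin is destroyed they clear its debris together with macrophages that enter from the blood, present antigen, and release growth factors that act on the progenitors of myelin-forming cells. Blood monocytes are replaced continuously from bone marrow, so an allele recombined weeks earlier is kept mainly by long-lived cells, while newly arrived macrophages lack it.

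The 7 lesion libraries were sequenced to between 23875527 and 30844575 recovered reads, which covered 16933 to 17945 genes. Pearson correlations of log2 values over tested genes were 0.963 to 0.981 among non-ablated and 0.925 to 0.966 among ablated lesions, with ablated library 8 the lowest in each of its pairs with the other ablated libraries. Between the groups they were 0.927 to 0.970. Ablated library 14 correlated more with non-ablated libraries 2 and 4 (0.969 and 0.970) than with any ablated library (at most 0.966). The mean log2 level of 4 Y-linked genes ran from 3.56 to 8.32 in the non-ablated and from 3.78 to 7.41 in the ablated libraries, and these ranges overlapped between genotypes. Values below are the authors' normalized counts, and log2 fold changes are ablated minus non-ablated on the log2(normalized count + 1) scale with their standard errors.

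Of 15637 tested genes, limma called 46 at an adjusted p under 0.05 in a fit over all 14 libraries, or 0.294%. They were 41 genes that fell (0.262%) and 5 that rose (0.032%). The same test on the 7 lesion libraries alone, called the lesion-only fit below, called 416 genes (2.66%), 312 lower (2.0%) and 104 higher (0.665%), and all 46 were among them. The fold changes of both fits are identical and only the spread differs. The median residual SD per gene was 0.37 on the log2 scale in lesion libraries and 0.68 in distal libraries, which the first fit pools. Unless the lesion-only fit is named, an adjusted p is that of the 14-library fit. The lesion groups did not overlap for 16.0% of all tested genes, 8.36% lower and 7.62% higher in ablated lesions, and the median log2 fold change of all genes was 0.01. Leaving out 1 lesion library lowered the 46 to between 5 and 36. Without library 8 it was 16, and without library 2, 4 or 6 it was 5, 8 or 9. In the lesion-only fit the count without library 8 was 528, and without library 2, 4 or 6 it was 171, 156 or 162.

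**Figure D1:**
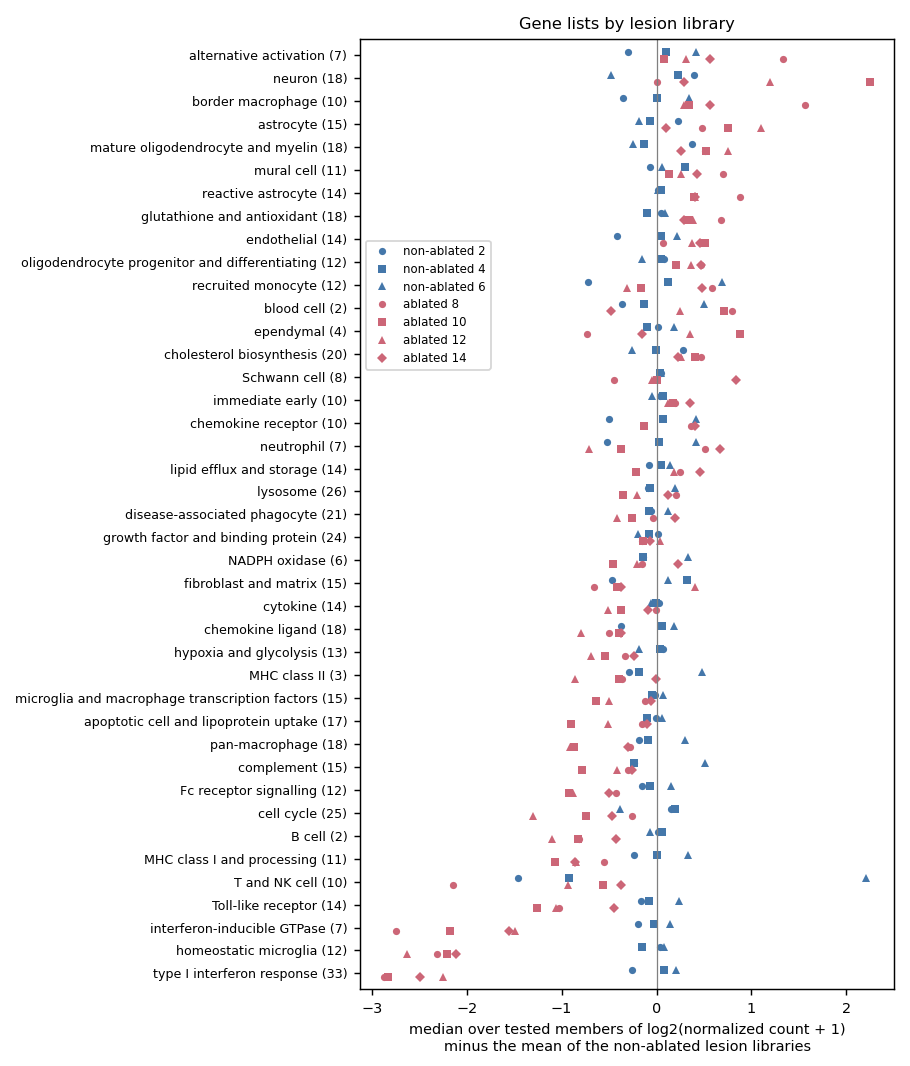
Median deviation of each gene list in each lesion library (log2 units, relative to the mean of the 3 non-ablated lesion libraries), with the number of tested members in parentheses. The homeostatic microglia and type I interferon response lists lie below -2 in every ablated library. The interferon-inducible GTPase list lies at -1.49 and -1.55 in libraries 12 and 14. The myelin, astrocyte and reactive astrocyte medians of the ablated libraries lie above 0. Non-ablated library 2 lies above ablated library 14 for myelin (0.374 against 0.256) and astrocytes (0.227 against 0.096).

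Genes that mark microglia fell steeply. Cx3cr1, the receptor for fractalkine and the gene that drives the recombinase, was at 3892, 3657 and 4717 in the non-ablated libraries and 155, 239.5, 212 and 336 in the ablated ones. The groups were fully apart, and the means were 4089 ± 556 (SD, n = 3) and 236 ± 75.7 (SD, n = 4), which left 5.77%. Cx3cr1 fell by 4.16 ± 0.51 (adjusted p = 0.00301). Siglech, a sialic acid-binding lectin of microglia (chromosome 7, 55768154 to 55779448), was at 805, 521 and 475 in the non-ablated libraries and 1.25, 41.5, 17.4 and 30.6 in the ablated ones. Library 8 was the lowest by far, at the value of 1 read in that library. For Siglech 3.78% of the mean remained, and it fell by 5.25 ± 0.85 (adjusted p = 0.02), a size that depends partly on the 1 added before the log. Slc2a5, the fructose transporter of microglia (chromosome 4, 150119344 to 150144168), was at 145, 101 and 90.7 in the non-ablated libraries and 7.51, 7.98, 4.98 and 9.41 in the ablated ones. Every ablated library lay far below the non-ablated ones, 6.66% of the mean remained, and Slc2a5 fell by 3.74 ± 0.69 (adjusted p = 0.0345). In bulk tissue, fewer cells of a type and less RNA per cell cannot be told apart.

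Other microglia genes kept more of their level. Fcrls, a scavenger receptor of the Fc receptor-like family, was at 34985, 32779 and 36595 in the non-ablated libraries and 5112, 5495, 3367 and 7989 in the ablated ones. Its groups did not overlap, 15.8% remained, and it fell by 2.73 ± 0.38 (adjusted p = 0.00755). Golm1, a Golgi membrane protein, kept 18.9% and fell by 2.43 ± 0.39 (adjusted p = 0.0188), and Olfml3, a secreted glycoprotein, kept 23.6% and fell by 2.09 ± 0.38 (adjusted p = 0.0329). Tmem119, a membrane protein that marks microglia, was at 27462, 24622 and 33572 in the non-ablated libraries and 11836, 4606, 2684 and 4431 in the ablated ones. Library 8 was the highest of the ablated group, and Tmem119 passed in the lesion-only fit alone (-2.49 ± 0.41, lesion-only adjusted p = 0.0118). Selplg, the ligand of P-selectin, kept 41.2% (-1.26 ± 0.18, lesion-only adjusted p = 0.00503). Ltc4s and Crybb1 passed neither fit (-1.57 ± 0.54, lesion-only adjusted p = 0.196, and -2.15 ± 0.59, lesion-only adjusted p = 0.107). In all, 6 of the 12 tested homeostatic microglia genes fell in the 14-library fit and 9 in the lesion-only fit, with a median of -2.29. P2ry12, P2ry13 and Gpr34 are listed at 0 in all 14 libraries. So is B2m, which every cell uses, so such a listing gives no level. Left-out libraries moved both counts. The 14-library count was 1 without library 2, 4 or 6, 2 without library 12, 3 without library 8 or 10 and 4 without library 14. The lesion-only count was 6 without library 2 or 6, 7 without library 4 and 10 without library 8, and Tmem119 lost its call without library 2, 4 or 6.

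**Figure D2:**
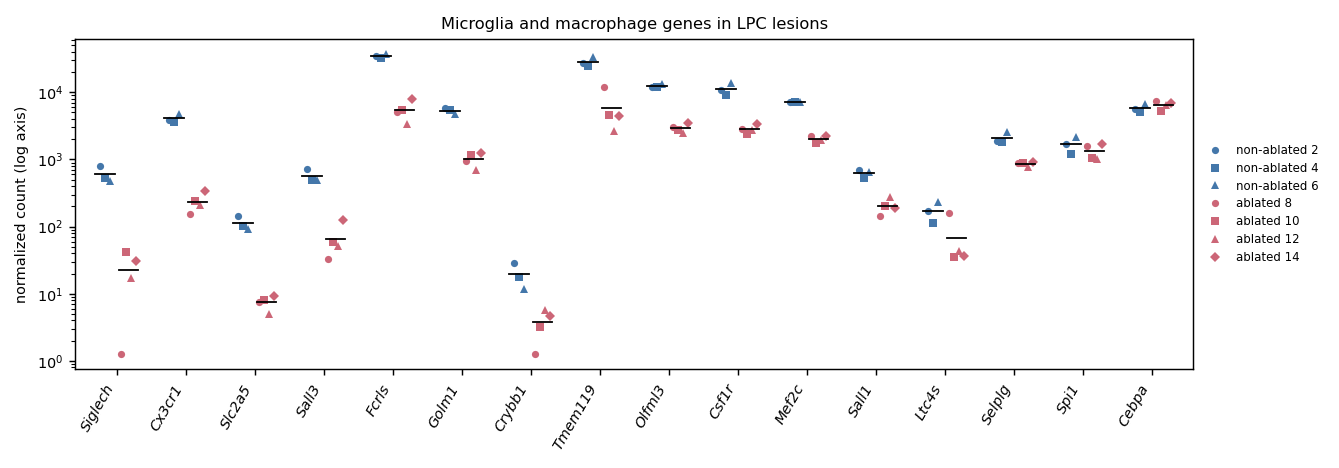
Normalized counts (log axis) of homeostatic microglia genes, selected transcription factors and Csf1r in each lesion library, ordered by the share that remained. Black bars are group means. Siglech and Cx3cr1 are separated by more than a factor of 10 between groups, while Ltc4s, Spi1 and Cebpa overlap.

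Transcription factors did not move as one. Mef2c, a factor of microglial identity (chromosome 13, 83504017 to 83667079), was at 7087, 7254 and 7150 in the non-ablated libraries and 2207, 1775, 1942 and 2262 in the ablated ones. Both groups were tight and did not overlap, 28.6% remained, and Mef2c fell by 1.81 ± 0.24 (adjusted p = 0.00538). Sall1, a zinc finger factor that in the brain is restricted largely to microglia, was at 690.2, 531 and 649.7 in the non-ablated libraries and 142, 204, 277 and 192 in the ablated ones and passed in the lesion-only fit (-1.64 ± 0.26, lesion-only adjusted p = 0.00896). Its relative Sall3 was at 727, 501 and 498 in the non-ablated libraries and 32.6, 58.3, 50.7 and 124 in the ablated ones. No ablated library reached the non-ablated range and Sall3 fell by 3.24 ± 0.43 (adjusted p = 0.00566). Tal1, a helix-loop-helix factor of blood cell development, kept 17.8% and fell by 2.61 ± 0.45 (adjusted p = 0.0259). Factors shared by all macrophages were nearer to their non-ablated level. Spi1, which encodes PU.1, was at 1714, 1208 and 2152 in the non-ablated libraries and 1583, 1055, 1030 and 1706 in the ablated ones. The groups overlapped and Spi1 passed neither fit (-0.33 ± 0.26, lesion-only adjusted p = 0.618). Irf8 (-0.86 ± 0.23, lesion-only adjusted p = 0.0931), Maf (-0.82 ± 0.19, lesion-only adjusted p = 0.0566) and Runx1 (-0.53 ± 0.21, lesion-only adjusted p = 0.255) had groups that did not overlap but passed neither fit. Cebpa (0.16 ± 0.17, lesion-only adjusted p = 0.749) and Mitf (-0.00 ± 0.16, lesion-only adjusted p = 0.996) overlapped. Of 15 factors on the list, 1 fell in the 14-library fit (Mef2c) and 2 in the lesion-only fit, with a median of -0.47. Mef2c lost its 14-library call without library 2, and Sall1 lost its lesion-only call without library 2 or 6.

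General macrophage genes spread widely. Csf1r, the receptor on which macrophages depend, was at 10950, 8990 and 13817 in the non-ablated libraries and 2801, 2421, 2739 and 3358 in the ablated ones. The highest ablated library lay below the lowest non-ablated one, 25.1% remained, and Csf1r fell by 1.98 ± 0.38 (adjusted p = 0.0459). Aif1, which encodes the actin-binding protein Iba1 used to stain microglia, was at 2351, 1869 and 3234 in the non-ablated libraries and 609, 477, 468 and 545 in the ablated ones. It kept 21.1% and passed in the lesion-only fit (-2.21 ± 0.21, lesion-only adjusted p = 0.000827). Cd52, a small surface glycoprotein of leukocytes, also passed there (-1.67 ± 0.30, lesion-only adjusted p = 0.0192). By contrast, Cd68, a lysosomal membrane protein of phagocytes, was at 50544, 55439 and 69033 in the non-ablated libraries and 66867, 35458, 30478 and 47180 in the ablated ones. The groups overlapped, as they did for the F4/80 gene Adgre1 (-0.32 ± 0.27, lesion-only adjusted p = 0.649), Itgam (-0.92 ± 0.27, lesion-only adjusted p = 0.133) and Ptprc (-0.65 ± 0.22, lesion-only adjusted p = 0.193). Lyz2, the lysozyme of myeloid cells, was at 212415, 196925 and 304690 in the non-ablated libraries and 697525, 628235, 474237 and 644639 in the ablated ones. All 4 ablated libraries lay above all 3 non-ablated ones, but Lyz2 passed neither fit (1.37 ± 0.36, lesion-only adjusted p = 0.0885). Its near-identical neighbour Lyz1 was at 14701, 13846 and 22362 in the non-ablated libraries and 48456, 43200, 31486 and 44010 in the ablated ones and passed in the lesion-only fit (1.32 ± 0.24, lesion-only adjusted p = 0.0212). Reads could be split between both lysozyme genes, so the value of either is uncertain. Of 18 tested pan-macrophage genes, 16 had negative fold changes with a median of -0.59, 2 fell in the 14-library fit and 4 in the lesion-only fit. The 14-library count was 1 without library 14 and 0 with any 1 other lesion library left out. In the lesion-only fit Csf1r and Aif1 kept their calls in all 7 cases, Cd52 lost its call without library 4, 6 or 10, and Lyz1 without library 2, 4 or 10.

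Several receptors that sense antibody, microbes and metabolites fell. Fcgr1, the high-affinity receptor for IgG (chromosome 3, 96282909 to 96293969), was at 10263, 12600 and 15654 in the non-ablated libraries and 3595, 2072, 2084 and 3478 in the ablated ones. Both groups stood apart and Fcgr1 fell by 2.22 ± 0.38 (adjusted p = 0.0274). The other Fc receptor genes Fcgr2b, Fcgr3 and Fcgr4 had groups that did not overlap but passed neither fit (-0.63 ± 0.17, lesion-only adjusted p = 0.0928, -0.52 ± 0.21, lesion-only adjusted p = 0.282, and -0.98 ± 0.28, lesion-only adjusted p = 0.117). The shared signalling chain Fcer1g was at 62046, 65496 and 86244 in the non-ablated libraries and 109133, 42519, 33732 and 41974 in the ablated ones, with library 8 above every non-ablated library. Lyn, a Src family kinase downstream of these receptors, passed in the lesion-only fit (-0.88 ± 0.19, lesion-only adjusted p = 0.0406). On the Fc receptor list 11 of 12 were negative, 1 fell in the 14-library fit and 2 in the lesion-only fit. Fcgr1 kept its 14-library call in 1 of 7 cases of a library left out, without library 14, and its lesion-only call in all 7, while Lyn lost its call without library 2, 4, 6, 10 or 12.

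The Toll-like receptor list had a median of -1.16. Each of its 14 tested members was negative, and 0 fell in the 14-library fit and 5 in the lesion-only fit. Ly86, also called MD-1, the partner of the receptor-like protein Cd180, was at 11775, 11140 and 13166 in the non-ablated libraries and 2775, 2817, 1440 and 2440 in the ablated ones. All 4 ablated libraries lay outside the non-ablated range, library 12 was the lowest, and Ly86 kept 19.7% (-2.39 ± 0.24, lesion-only adjusted p = 0.000952). Cd180 itself passed with groups that did not overlap (-1.31 ± 0.29, lesion-only adjusted p = 0.0467). Tlr2, the receptor for bacterial lipopeptides, was at 1829, 1987 and 2450 in the non-ablated libraries and 759, 857, 759 and 1004 in the ablated ones (-1.30 ± 0.18, lesion-only adjusted p = 0.00465). Every ablated library was below every non-ablated one. Tlr7 and Tlr3, sensors of single-stranded and double-stranded RNA, passed too (-1.39 ± 0.26, lesion-only adjusted p = 0.0237, and -1.61 ± 0.33, lesion-only adjusted p = 0.0369). Tlr4, the receptor for lipopolysaccharide, and Tlr13 overlapped between groups (-0.26 ± 0.21, lesion-only adjusted p = 0.636, and -0.10 ± 0.22, lesion-only adjusted p = 0.889). The lesion-only count was 2 without library 2, 4 or 6, and 2 without library 10.

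Hcar2, Mlxipl, Bco2, Ptgs1 and Pnp were also among the 41 genes that fell. Hcar2, a receptor for niacin and beta-hydroxybutyrate (chromosome 5, 123863570 to 123865516), was at 1067, 916 and 899 in the non-ablated libraries and 36.3, 43.9, 34.9 and 129 in the ablated ones. Library 14 was the highest of the ablated group, the groups did not overlap, and Hcar2 fell by 4.18 ± 0.74 (adjusted p = 0.0306). Gpr84, a receptor for medium-chain fatty acids, was at 409.8, 320.5 and 339 in the non-ablated libraries and 21.3, 4.79, 19.9 and 36.1 in the ablated ones and passed in the lesion-only fit (-4.32 ± 0.56, lesion-only adjusted p = 0.00339). Mlxipl, the carbohydrate-responsive transcription factor ChREBP, was at 742, 445 and 649 in the non-ablated libraries and 58.9, 12.8, 41.5 and 50.2 in the ablated ones. It kept 6.67% and fell by 4.03 ± 0.72 (adjusted p = 0.0329). Bco2, a carotenoid-cleaving enzyme, fell by 2.34 ± 0.37 (adjusted p = 0.0188). Ptgs1, which encodes cyclooxygenase 1, fell by 2.15 ± 0.40 (adjusted p = 0.039), and Pnp, a purine salvage enzyme, fell by 1.19 ± 0.23 (adjusted p = 0.0496). Pnp lies beside the near-identical Pnp2, so reads may be split between them.

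Capn3, a calcium-dependent protease (chromosome 2, 120463593 to 120504919), lost most of all genes called. It was at 737, 456 and 883 in the non-ablated libraries and 8.77, 7.19, 13.3 and 25.9 in the ablated ones. The groups differed by more than a factor of 10 in every pair of libraries, 1.99% remained, and Capn3 fell by 5.66 ± 0.68 (adjusted p = 0.00301). Cst7, which encodes cystatin F, an inhibitor of lysosomal cysteine proteases (chromosome 2, 150570415 to 150578944), was at 2657, 2689 and 3264 in the non-ablated libraries and 130.2, 113, 43.2 and 238 in the ablated ones. The ablated mean was 4.56% of the non-ablated one and Cst7 fell by 4.67 ± 0.57 (adjusted p = 0.00301). Cd72, an inhibitory receptor best known from B cells (chromosome 4, 43447724 to 43455102), was at 4259, 6668 and 9273 in the non-ablated libraries and 287, 207, 208 and 459 in the ablated ones. The groups did not overlap, 4.31% remained, and Cd72 fell by 4.54 ± 0.73 (adjusted p = 0.0199). Capn3, Cst7, Cx3cr1, Dyrk4 and Gas6 are the 5 genes that stayed called in the 14-library fit whichever of the 7 lesion libraries was left out.

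The sequence upstream of Cd72 is shown because it holds a match to GAGGAAGT, the core bound by PU.1, in its reverse complement ACTTCCTC (in capitals). It is the 250 bases before the annotated start in RefSeq GRCm38.p6, 5′ to 3′ in the direction of the gene.
Cd72 (chr4:43454627-43454876, minus strand): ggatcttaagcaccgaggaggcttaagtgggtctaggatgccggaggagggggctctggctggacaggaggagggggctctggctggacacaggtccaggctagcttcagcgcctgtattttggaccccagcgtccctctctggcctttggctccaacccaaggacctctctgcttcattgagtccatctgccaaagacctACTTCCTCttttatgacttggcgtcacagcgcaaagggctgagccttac

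The match begins at -49 from the start. Windows from 250 bases before to 50 after the start held GAGGAAGT on either strand for 3.63% of 12371 tested genes. Of genes lower in the lesion-only fit 24 of 238 held it (10.1%), and of genes higher in that fit 5 of 77 (6.49%). Of genes that fell in the 14-library fit 2 of 32 held it (6.25%). It was in 0 of 4 genes that rose in that fit and in 0 of 9 homeostatic microglia genes with a window. These matches describe letters and do not measure binding. Spi1, the gene of PU.1, did not pass either fit, as given above, and a part of PU.1 in these shares was not tested.

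Other inhibitory or activation receptors of leukocytes passed in the lesion-only fit. Pdcd1, which encodes PD-1, was at 340.3, 332 and 251 in the non-ablated libraries and 20.04, 7.19, 9.14 and 23.5 in the ablated ones (-4.41 ± 0.45, lesion-only adjusted p = 0.000985). The lowest non-ablated library held more than 10 times the highest ablated one. Lag3, another inhibitory receptor (-2.80 ± 0.45, lesion-only adjusted p = 0.00991), and the costimulatory ligand Cd86 (-1.57 ± 0.25, lesion-only adjusted p = 0.00991) had groups that did not overlap either. Lag3 and Cd86 were chosen after their values were seen. T cells also make PD-1 and Lag3, and B cells Cd72. The B cell list (2 tested members, with Ms4a1 listed at 0) summed to 91.3 to 176 in non-ablated and 28.2 to 74.5 in ablated lesions. The part of B cells in the Cd72 values was not tested. The T and NK cell list (10 tested members) had a median of -1.002, which was 0.22 without library 6, -1.73 without library 2 and 0.05 with array weights, so its direction rests on library 6. It had 0 calls in either limma fit, in edgeR or in DESeq2. In the lesion-only fit it held 1 gene at an unadjusted p under 0.05, against 2354 of all 15637 tested genes. Its summed level ran from 122 to 1111 in non-ablated lesions, with library 6 the highest, and from 85.2 to 179 in ablated lesions. Their part in the lower Pdcd1 and Lag3 values was not tested. Pdcd1 kept its lesion-only call whichever library was left out, Lag3 lost it without library 2 or 6, and Cd86 without library 2, 4 or 6.

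The remaining genes that fell in the 14-library fit serve adhesion, proteolysis, signalling and uptake. Lrrc3, a leucine-rich repeat protein, was at 478, 429 and 487 in the non-ablated libraries and 26.3, 7.98, 29.9 and 27.4 in the ablated ones, and it fell by 4.43 ± 0.67 (adjusted p = 0.0129). Dyrk4, a dual-specificity kinase, was at 111, 123 and 111 in the non-ablated libraries and 6.26, 3.19, 7.48 and 3.14 in the ablated ones. The groups were fully apart, and Dyrk4 fell by 4.34 ± 0.51 (adjusted p = 0.00301). Cryba4, a crystallin, passed in the lesion-only fit (-4.30 ± 0.81, lesion-only adjusted p = 0.024) with library 6 the highest at 63, 51 and 210.2, a call lost without library 2, 4, 6, 10 or 12. Akap3, an anchoring protein for protein kinase A, was low throughout, at 37.2, 19.4 and 35.2 in the non-ablated libraries and 2.5, 0, 0 and 4.7 in the ablated ones, and fell by 3.85 ± 0.74 (adjusted p = 0.0481). Adhesion genes were Fat3, an atypical cadherin (-2.41 ± 0.39, adjusted p = 0.02), Cdhr3, a cadherin-related protein (-2.87 ± 0.48, adjusted p = 0.0237), and Cadm1, an immunoglobulin-type adhesion protein (-1.68 ± 0.26, adjusted p = 0.0173). Proteolysis genes were Mmp10, a matrix metalloproteinase (-4.30 ± 0.84, adjusted p = 0.0496), St14, the membrane protease matriptase (-2.33 ± 0.44, adjusted p = 0.0439), and the protease inhibitor Serpine2 (-1.02 ± 0.16, adjusted p = 0.0188). The endocytic adaptor Dab2 (-1.48 ± 0.25, adjusted p = 0.0243), the GTPase-activating protein Srgap2 (-1.30 ± 0.24, adjusted p = 0.0329), the Nogo receptor relative Rtn4rl1 (-3.16 ± 0.55, adjusted p = 0.0304), Klhl6 (-1.88 ± 0.34, adjusted p = 0.0329), Eva1a (-1.76 ± 0.32, adjusted p = 0.0329) and the Integrator subunit relative Ints6l (-1.76 ± 0.26, adjusted p = 0.0129) made up the rest, with Arsb, a lysosomal sulfatase that degrades chondroitin and dermatan sulfate, at 8652, 7087 and 6816 in the non-ablated libraries and 2550, 2698, 1946 and 3565 in the ablated ones. The Arsb groups did not overlap and it fell by 1.51 ± 0.21 (adjusted p = 0.00755).

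A large block of genes lower in ablated lesions is induced by type I interferon, a cytokine signal that runs through factors that include Stat2 and Irf9 and switches on antiviral genes through a short promoter element, the interferon-stimulated response element (ISRE). All 33 tested members of the list were negative, with a median of -2.68. Of these, 4 fell in the 14-library fit (Rtp4, Mx2, Xaf1 and Trim30a) and 32 in the lesion-only fit, Bst2 being the exception. The 14-library count was 1 without library 14 and 0 with any 1 other lesion library left out. Of all genes tested, 0.262% fell in the 14-library fit and 2.0% in the lesion-only fit. Upstream sequences of 4 members are shown because each holds an ISRE match. They are the 250 bases before the annotated start, from the RefSeq promoter table of GRCm38.p6, 5′ to 3′ in the direction of the gene, with every match to GAAA, any 2 bases and GAAA, or to the reverse complement of that pattern (TTTC, any 2 bases and TTTC), in capitals.
Isg15 (chr4:156200819-156201068, minus strand): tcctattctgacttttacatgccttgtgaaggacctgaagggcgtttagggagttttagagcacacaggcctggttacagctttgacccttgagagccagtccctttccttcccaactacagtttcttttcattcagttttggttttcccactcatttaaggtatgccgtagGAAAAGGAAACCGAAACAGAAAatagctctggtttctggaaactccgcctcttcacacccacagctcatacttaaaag
Rsad2 (chr12:26456453-26456702, minus strand): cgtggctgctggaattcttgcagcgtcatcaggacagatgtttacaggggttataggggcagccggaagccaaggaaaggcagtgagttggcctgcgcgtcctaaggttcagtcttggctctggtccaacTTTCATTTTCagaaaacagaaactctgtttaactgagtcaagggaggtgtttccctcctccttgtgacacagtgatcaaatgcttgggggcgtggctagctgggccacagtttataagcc
Stat2 (chr10:128270248-128270497, plus strand): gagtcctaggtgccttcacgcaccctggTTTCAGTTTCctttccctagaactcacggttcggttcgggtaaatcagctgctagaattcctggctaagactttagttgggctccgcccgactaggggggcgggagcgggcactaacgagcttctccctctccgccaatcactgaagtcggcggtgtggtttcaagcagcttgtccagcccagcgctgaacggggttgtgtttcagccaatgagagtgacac
Trim30a (chr7:104465194-104465443, minus strand): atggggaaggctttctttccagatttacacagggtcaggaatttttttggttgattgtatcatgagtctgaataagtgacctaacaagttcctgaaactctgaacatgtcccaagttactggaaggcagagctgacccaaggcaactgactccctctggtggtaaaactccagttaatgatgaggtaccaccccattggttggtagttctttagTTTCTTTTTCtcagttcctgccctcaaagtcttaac

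Counted from the start, Isg15 held 3 overlapping matches beginning at -78, -72 and -66, Rsad2 1 match at -120 and Stat2 1 at -222. Trim30a held 1 at -36 before 1 of its 2 annotated starts, the one shown. Counted over windows of 250 bases before to 50 after the start, 3.79% of 12371 tested genes with a window held the element. It was present in 13 of 22 members of the interferon list with a window (59.1%) and in 43 of 238 genes lower in the lesion-only fit (18.1%). Outside the interferon and GTPase lists the share of lower genes was 13.5%, 29 of 215. Among genes higher in the lesion-only fit it was 2.6%, 2 of 77. Of genes that fell in the 14-library fit 2 of 32 held it (6.25%), and 0 of 9 homeostatic microglia genes did. A match is a description of letters and no measure of binding, and genes with a window are not a random draw of the list.

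Isg15, a ubiquitin-like protein attached to other proteins in the antiviral state, was at 3524, 5007 and 5728 in the non-ablated libraries and 357, 534, 554 and 793 in the ablated ones. The lowest non-ablated library held more than 4 times the highest ablated library, and 11.8% remained (-3.11 ± 0.27, lesion-only adjusted p = 0.000551). Rsad2, the antiviral enzyme viperin, was at 6144, 6933 and 5204 in the non-ablated libraries and 1074, 544, 1362 and 747 in the ablated ones (-2.78 ± 0.29, lesion-only adjusted p = 0.00102). Usp18, a protease that removes Isg15 and restrains the pathway, was at 2515, 3128 and 2930 in the non-ablated libraries and 388, 382, 543 and 481 in the ablated ones (-2.68 ± 0.19, lesion-only adjusted p = 0.000314). For all 3 the groups did not overlap. Rtp4, an interferon-induced chaperone of receptors, was at 1604, 1998 and 2128 in the non-ablated libraries and 67.6, 236, 342 and 318 in the ablated ones. Library 8 was the lowest and the gene fell by 3.21 ± 0.58 (adjusted p = 0.0329). Xaf1, an interferon-induced promoter of cell death, was at 1338, 1628 and 1642 in the non-ablated libraries and 352, 226, 328 and 311 in the ablated ones. It fell by 2.35 ± 0.43 (adjusted p = 0.0329), with no overlap of the groups. Trim30a, a ubiquitin ligase with close copies in the genome, was at 4490, 5190 and 5339 in the non-ablated libraries and 1205, 1076, 1738 and 1523 in the ablated ones and fell by 1.87 ± 0.36 (adjusted p = 0.0496). Mx1 and Mx2, listed by RefSeq as transcribed pseudogenes and similar in sequence, kept 7.82% and 14.5%.

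Transducers of the pathway, Stat2 and Irf9, fell in the lesion-only fit too. Stat2 was at 4560, 5550 and 6829 in the non-ablated libraries and 654, 1145, 1475 and 1218 in the ablated ones (-2.37 ± 0.27, lesion-only adjusted p = 0.00171). Irf9 was at 5162, 5490 and 6449 in the non-ablated libraries and 2587, 2194, 3610 and 2875 in the ablated ones (-1.03 ± 0.19, lesion-only adjusted p = 0.0232). Neither gene overlapped between groups. Irf7, the factor that amplifies the response, was at 3441, 6536 and 12877 in the non-ablated libraries and 230.4, 199, 526 and 581 in the ablated ones. The non-ablated libraries differed from each other by more than 3 times, yet the lowest of them held more than 5 times the highest ablated library, and Irf7 kept 5.04% (-4.26 ± 0.49, lesion-only adjusted p = 0.00171). Among cytosolic sensors of viral RNA, Ifih1, Ddx58 and Dhx58 kept 24.3%, 27.2% and 26%. The nucleic acid sensor Zbp1 kept 10.03% (-3.32 ± 0.32, lesion-only adjusted p = 0.000827). Ly6e, a membrane protein that interferon also induces, fell by 1.84 ± 0.36 (adjusted p = 0.0496), with non-ablated library 6 the highest at 10468, 16342 and 27392. The heat map of interferon-induced genes shows the values by library.

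**Figure D3:**
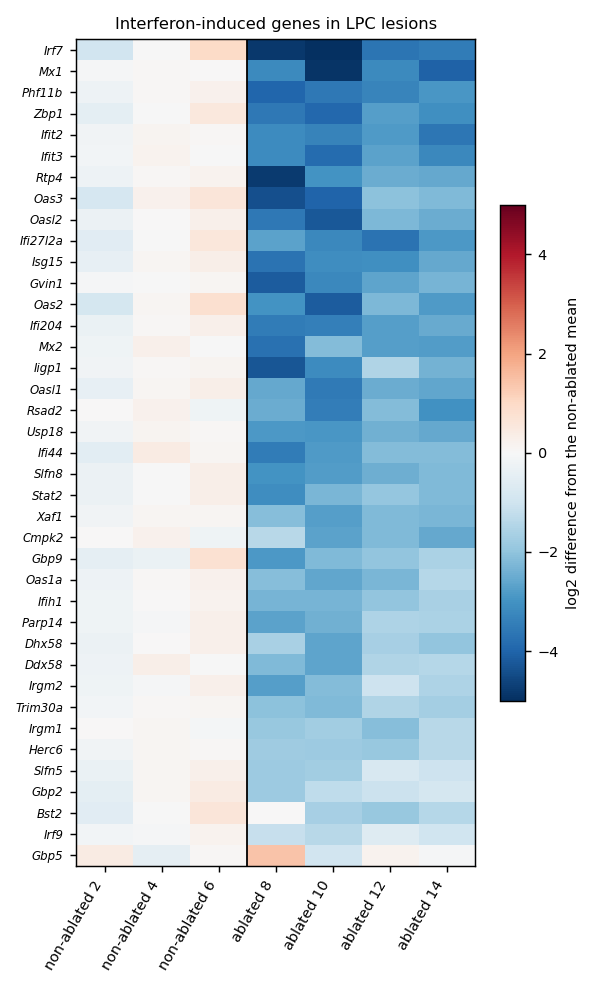
Log2 difference of interferon-induced genes from the mean of the non-ablated lesion libraries, with libraries in columns and the vertical line between the groups. Blue is lower. Bst2 is near 0 in ablated library 8 and Gbp5 is above 0 in ablated libraries 8 and 12, while the other genes drawn are blue in all 4 ablated libraries.

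Interferon-inducible GTPases, which attack vacuoles that hold pathogens, were lower as well. Of 7 tested members, 0 were called in the 14-library fit and 5 in the lesion-only fit. Gvin1 kept 13% (-3.08 ± 0.39, lesion-only adjusted p = 0.00267), Irgm1 29.6% (-1.78 ± 0.20, lesion-only adjusted p = 0.00134) and Iigp1 17.7% (-2.82 ± 0.53, lesion-only adjusted p = 0.0241). Gbp2 (-1.26 ± 0.28, lesion-only adjusted p = 0.0501) and Gbp5 (0.15 ± 0.60, lesion-only adjusted p = 0.941) did not pass. Another 7 GTPase genes are listed at 0 in all 14 libraries, and members of this family are near-copies whose reads can be split. Without library 2, 4, 6 or 10 the lesion-only GTPase count was 2. The lesion-only interferon count was 26 without library 4 or library 6, 30 without library 2, 29 without library 10 and 33 without library 8. Library 6 held the highest summed T and NK cell level, and without it the interferon median was -2.64. The part of T and NK cells in the interferon values was not tested.

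Of 11 tested genes of class I antigen presentation, 4 fell in the lesion-only fit, and the median was -0.90, every member being negative. Tap1, the peptide transporter of the endoplasmic reticulum, was at 3973, 5524 and 7633 in the non-ablated libraries and 2542, 1437, 1264 and 1360 in the ablated ones (-1.80 ± 0.29, lesion-only adjusted p = 0.00991). Nlrc5, the transactivator of class I genes, kept 46.2% (-1.13 ± 0.19, lesion-only adjusted p = 0.0131), and the immunoproteasome subunits Psmb8 and Psmb10 kept 50.8% and 49.8% (-0.99 ± 0.22, lesion-only adjusted p = 0.0483, and -0.99 ± 0.19, lesion-only adjusted p = 0.0232). H2-K1, a classical class I gene, was at 17779, 27974 and 39444 in the non-ablated libraries and 19740, 15822, 21028 and 19065 in the ablated ones, with overlapping groups. The 14-library fit called 0 of these genes, also with any 1 lesion library left out. The lesion-only count was 1 without library 2, 0 without library 4 or 6, and 2 without library 10, 12 or 14. Nlrc5, Tap1, Psmb8 and Psmb10 are each lost in some of these cases. Without library 8 the lesion-only count was 5. H2-D1 and H2-Q4 are listed at 0, as B2m is.

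Among phagocyte genes that mark the response to damaged myelin, some fell, some rose and most passed no test. Trem2, the lipid-sensing receptor of phagocytes, was at 9933, 9338 and 13835 in the non-ablated libraries and 15320, 8398, 8348 and 9648 in the ablated ones, with overlapping groups (-0.11 ± 0.25, lesion-only adjusted p = 0.893). Its adaptor Tyrobp was at 18029, 15525 and 28015 in the non-ablated libraries and 31737, 18975, 11838 and 16909 in the ablated ones. Library 8 was the highest of all 7 for both genes, and Tyrobp overlapped too (-0.09 ± 0.33, lesion-only adjusted p = 0.932). Apoe, the lipid carrier (0.03 ± 0.36, lesion-only adjusted p = 0.984), Lpl, a lipase (-0.02 ± 0.29, lesion-only adjusted p = 0.983), and the cathepsins Ctsb and Ctsd (-0.00 ± 0.33, lesion-only adjusted p = 0.996, and -0.38 ± 0.38, lesion-only adjusted p = 0.714) overlapped as well. Gpnmb, a glycoprotein of lysosomal stress, was at 94698, 81299 and 118707 in the non-ablated libraries and 203081, 184256, 239217 and 309668 in the ablated ones. All ablated libraries exceeded all non-ablated ones, but Gpnmb passed neither fit (1.24 ± 0.30, lesion-only adjusted p = 0.0676). Itgax, which encodes CD11c, was at 896, 633 and 597 in the non-ablated libraries and 1712, 1542, 1187 and 2905 in the ablated ones and rose in the lesion-only fit (1.32 ± 0.29, lesion-only adjusted p = 0.0467). Acp5, the tartrate-resistant acid phosphatase of lysosomes, was at 1826, 1667 and 1388 in the non-ablated libraries and 4897, 3891, 3943 and 4154 in the ablated ones and rose there too (1.38 ± 0.16, lesion-only adjusted p = 0.00212). With labelled age as a linear term its fold change was -0.16. Atp6v0d2, a proton pump subunit of osteoclasts and macrophages, rose with it (1.42 ± 0.24, lesion-only adjusted p = 0.0148, chosen after its values were seen). Of 21 tested disease-associated phagocyte genes, 4 fell and 1 rose in the lesion-only fit. Those that fell were Cst7, Axl, Igf1 and Ch25h, with a list median of -0.11. That median was -0.04 without library 10 and -0.02 without library 12, and the lesion-only count was 3 without library 2, 4, 6, 10 or 14. Itgax lost its call without library 2, 4, 6, 8, 10 or 14, Axl without library 2, 4, 6, 10 or 14, and Atp6v0d2 without library 2, 4 or 6. Of 26 lysosome genes limma called 0 in the 14-library fit, edgeR 0 and DESeq2 1, and Acp5 alone passed the lesion-only fit. Array weights, which called 1013 genes in all, gave 6 lysosome calls, and the lesion-only fit with quantile normalization gave 3. At an unadjusted p under 0.05 the 14-library fit held 5 of the 26, and 1128 of all 15637 tested genes. The lysosome median of -0.06 ran from -0.14 without library 14 to 0.06 without library 6.

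Ch25h, the enzyme that makes 25-hydroxycholesterol and is itself an interferon target, was at 3075, 2505 and 1392 in the non-ablated libraries and 168, 258, 157 and 402 in the ablated ones. No ablated library reached the non-ablated range and 10.6% remained (-3.26 ± 0.37, lesion-only adjusted p = 0.00166). The efflux transporters Abca1 and Abcg1 overlapped (0.10 ± 0.22, lesion-only adjusted p = 0.888, and 0.24 ± 0.24, lesion-only adjusted p = 0.709), as did the lipid droplet protein Plin2 (-0.03 ± 0.26, lesion-only adjusted p = 0.973). Fabp4, a fatty acid-binding protein of macrophages, was at 992, 1178 and 973 in the non-ablated libraries and 4417, 2476, 1805 and 4262 in the ablated ones and rose in the lesion-only fit (1.54 ± 0.30, lesion-only adjusted p = 0.029), a call lost without library 2, 4, 6, 10 or 14. The apolipoprotein gene Apoc1, chosen after its values were seen, kept 21.2% (-2.22 ± 0.34, lesion-only adjusted p = 0.00866), a call lost without library 6. Among 20 cholesterol synthesis genes 17 were positive with a median of 0.27, which was 0.47 without library 2 and 0.15 without library 6. Limma called 0 of the 20 in either fit, as did edgeR and DESeq2, and array weights gave 1 call. At an unadjusted p under 0.05 the lesion-only fit held 4, and 2354 of all 15637 tested genes.

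The bridges between dying cells and phagocytes moved in opposite directions. Gas6, the ligand of the Tyro3, Axl and Mertk receptor kinases (chromosome 8, 13465374 to 13494535), was at 19635, 21038 and 18352 in the non-ablated libraries and 6965, 6952, 6378 and 9180 in the ablated ones. Both groups were tight and did not overlap, 37.5% remained, and Gas6 fell by 1.43 ± 0.16 (adjusted p = 0.00301). Pros1, the second ligand, kept 50.5% (-0.99 ± 0.16, lesion-only adjusted p = 0.00991), and Axl kept 48.5% (-1.05 ± 0.20, lesion-only adjusted p = 0.0253). Mertk was at 2115, 1854 and 2120 in the non-ablated libraries and 681, 1055, 1763 and 1725 in the ablated ones and did not pass (-0.74 ± 0.31, lesion-only adjusted p = 0.302). Mfge8, which links phosphatidylserine on dying cells to integrins (chromosome 7, 79133768 to 79149060), was at 4727, 4542 and 6969 in the non-ablated libraries and 15368, 15120, 15394 and 19408 in the ablated ones. The lowest ablated library held more than 2 times the highest non-ablated one, and Mfge8 rose by 1.61 ± 0.22 (adjusted p = 0.00742), or 3.02 times in the mean. On the uptake list 10 of 17 members were negative with a median of -0.55. Pros1 lost its call without library 2, 4 or 6, and Axl without library 2, 4, 6, 10 or 14.

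Genes of recruited and border macrophages showed 1 fall and 1 rise in the lesion-only fit. Of 12 recruited monocyte genes, 7 were positive with a median of 0.32, the summed level of the list was 6054 to 16504 in non-ablated and 12280 to 27203 in ablated lesions, and Ms4a4c fell in the lesion-only fit as the sole call (-2.71 ± 0.38, lesion-only adjusted p = 0.00524). Ccr2, the receptor by which monocytes enter tissue, was at 240.0, 622 and 1129 in the non-ablated libraries and 864, 429.5, 435 and 728 in the ablated ones, with overlapping groups. Ly6c2 (-0.22 ± 0.43, lesion-only adjusted p = 0.868) and Itga4 (0.56 ± 0.26, lesion-only adjusted p = 0.343) did not pass. Of 10 border macrophage genes 8 were positive with a median of 0.85. F13a1, a transglutaminase of monocytes and border macrophages, was at 2738, 3887 and 2889 in the non-ablated libraries and 10761, 8067, 13380 and 20408 in the ablated ones. The lowest ablated library held more than 2 times the highest non-ablated one, and F13a1 rose in the lesion-only fit (1.99 ± 0.29, lesion-only adjusted p = 0.00675). Mrc1 (1.15 ± 0.35, lesion-only adjusted p = 0.147), Cd163 (0.75 ± 0.58, lesion-only adjusted p = 0.611) and Lyve1 (0.95 ± 0.66, lesion-only adjusted p = 0.569) did not pass. Arg1, an arginase induced in reparative macrophages, was at 8381, 16500 and 6637 in the non-ablated libraries and 76540, 25302, 16689 and 36850 in the ablated ones. The ablated libraries lay above the non-ablated ones, with library 12 only just above library 4, and Arg1 passed neither fit (1.77 ± 0.49, lesion-only adjusted p = 0.105). The border macrophage median was 0.42 without library 2, 0.51 without library 8, 1.18 without library 6 and -0.68 with labelled age as a linear term, and the monocyte median was -0.01 without library 2, 0.14 without library 8, 0.67 without library 6 and -1.76 with the age term. Without library 8 the lesion-only fit called 2 monocyte genes.

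**Figure D4:**
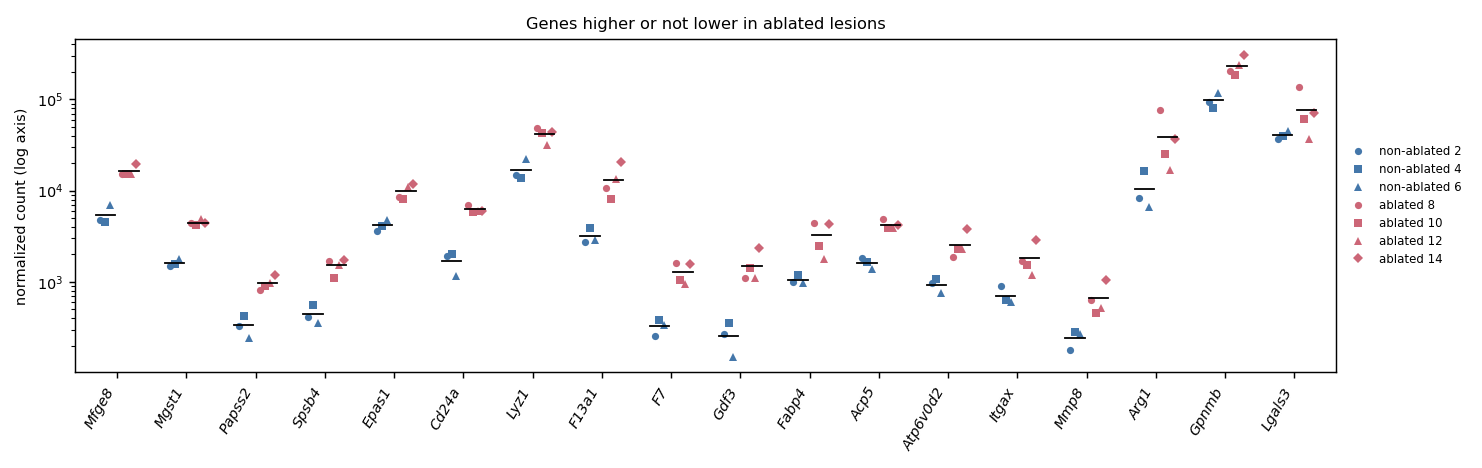
Normalized counts (log axis) of genes higher in ablated lesions and of phagocyte genes that did not pass a fit (Arg1, Gpnmb and Lgals3), per lesion library, with black bars at group means. Groups overlap for Lgals3 alone among the genes drawn.

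Among 18 chemokine genes 2 fell in the lesion-only fit, with a median of -0.30. That median was -0.82 without library 2, -0.64 without library 12, -0.56 without library 10, -0.48 without library 4 and -0.47 without library 8. The count was 4 without library 8 and 1 with any 1 other library left out, Ccl12 being kept in all 7 cases. Ccl12, a monocyte chemoattractant, was at 1021, 1112 and 1217 in the non-ablated libraries and 152, 47.9, 39 and 36.8 in the ablated ones. The lowest non-ablated library held more than 6 times the highest ablated one, and 6.16% remained (-4.26 ± 0.45, lesion-only adjusted p = 0.0011). Ccl2, its neighbour in the same cluster, was at 1672, 3319 and 1492 in the non-ablated libraries and 5037, 1231, 993 and 2010 in the ablated ones. Ccl7, another member of the cluster, was at 626, 1508 and 687 in the non-ablated libraries and 3347, 662, 733 and 1043 in the ablated ones. Library 8 was the highest of all 7 for both, and the groups overlapped. Ccl3 and Ccl4 had groups that did not overlap but passed neither fit (-1.49 ± 0.38, lesion-only adjusted p = 0.0837, and -1.82 ± 0.43, lesion-only adjusted p = 0.0631). Cxcl13, a B cell chemoattractant, was low, at 15.4, 37.4 and 46.9 in the non-ablated libraries and 7.51, 0, 0 and 0 in the ablated ones (-4.19 ± 0.87, lesion-only adjusted p = 0.0384), and its call was kept without library 8 alone. Of 14 cytokine genes 0 were called by limma in either fit, by edgeR or by DESeq2, and array weights gave 1 call. In the lesion-only fit 2 were at an unadjusted p under 0.05, against 2354 of all 15637 tested genes. Tnf was at 43.6, 27.3 and 18.1 in the non-ablated libraries and 43.8, 11.2, 4.98 and 18.8 in the ablated ones, with overlapping groups. Il1b was at 37.2, 42.4 and 184 in the non-ablated libraries and 12.5, 19.96, 16.6 and 42.3 in the ablated ones, where library 14 lay within the non-ablated range.

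Igf1, a growth factor for oligodendrocyte lineage cells, was at 12036, 12312 and 13241 in the non-ablated libraries and 3827, 3934, 5152 and 5785 in the ablated ones. Both groups stood apart and 37.3% remained (-1.44 ± 0.19, lesion-only adjusted p = 0.00329). Pdgfb, a platelet-derived growth factor chain, was at 2703, 2538 and 3196 in the non-ablated libraries and 1006, 1039, 1091 and 1366 in the ablated ones (-1.32 ± 0.17, lesion-only adjusted p = 0.00326). These 2 were the calls among 24 growth factor genes, whose median was -0.15 (-0.15 to -0.03 over libraries left out, nearest 0 without library 2), and both stayed called in the lesion-only fit whichever lesion library was left out. Fn1, the matrix protein fibronectin, was at 45000, 62626 and 42452 in the non-ablated libraries and 17524, 14625, 21657 and 26206 in the ablated ones (-1.34 ± 0.25, lesion-only adjusted p = 0.0237), the sole call of 15 fibroblast and matrix genes, and one lost without library 2, 4, 6 or 10. Gdf3, a member of the transforming growth factor family, was at 270.0, 354 and 149 in the non-ablated libraries and 1102, 1423, 1116 and 2339 in the ablated ones and rose in the lesion-only fit (2.55 ± 0.34, lesion-only adjusted p = 0.0042), but had a fold change of -0.68 with labelled age as a linear term.

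Complement genes moved in both directions. C1qa was at 20697, 17199 and 32055 in the non-ablated libraries and 11171, 7541, 7978 and 9618 in the ablated ones. All 4 ablated libraries lay outside the non-ablated range and C1qa passed in the lesion-only fit (-1.33 ± 0.24, lesion-only adjusted p = 0.0212), while C1qb and C1qc did not (-0.59 ± 0.23, lesion-only adjusted p = 0.251, and -1.02 ± 0.40, lesion-only adjusted p = 0.257). C3 was at 2964, 2389 and 3137 in the non-ablated libraries and 6731, 4358, 3509 and 3173 in the ablated ones, higher in every ablated library than in any non-ablated one, and passed neither fit (0.60 ± 0.25, lesion-only adjusted p = 0.305). The complement median was -0.59, and -0.04 without library 6, so that library decides its size. Itgax, which is part of a complement receptor, is on this list too. C1qa lost its call without library 2, 6, 10 or 12, and Itgax without library 2, 4, 6, 8, 10 or 14.

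Of the 5 genes that rose in the 14-library fit, Mfge8 is described above. Mgst1, a membrane-bound glutathione transferase (chromosome 6, 138140527 to 138156755), was at 1485, 1575 and 1775 in the non-ablated libraries and 4478, 4174, 4836 and 4429 in the ablated ones. Both groups were tight, did not overlap, and Mgst1 rose by 1.48 ± 0.25 (adjusted p = 0.0237). Papss2, which makes the sulfate donor for sulfated sugars and steroids (chromosome 19, 32595669 to 32667187), was at 331, 428 and 244 in the non-ablated libraries and 810.2, 907, 983 and 1178 in the ablated ones. It was 2.9 times as high in the mean and rose by 1.56 ± 0.26 (adjusted p = 0.0243). Spsb4, a SOCS box adaptor of ubiquitin ligases, was at 408, 557 and 359.5 in the non-ablated libraries and 1696, 1118, 1521 and 1748 in the ablated ones and rose by 1.79 ± 0.32 (adjusted p = 0.0329). Epas1, the hypoxia-inducible factor HIF-2alpha (chromosome 17, 86753864 to 86833410), was at 3659, 4129 and 4741 in the non-ablated libraries and 8622, 8106, 10840 and 11773 in the ablated ones. Its groups did not overlap and it rose by 1.23 ± 0.22 (adjusted p = 0.0329). Other hypoxia and glycolysis genes did not follow, with 10 of 13 negative, a median of -0.40, and no second call in either limma fit, though the lesion-only fit called 3 without library 14. Epas1 lost its lesion-only call without library 2 or 4. Among 18 glutathione and antioxidant genes, 15 were positive with a median of 0.40. Besides Mgst1, Gstm1 (1.12 ± 0.23, lesion-only adjusted p = 0.0342) and Srxn1 (1.04 ± 0.23, lesion-only adjusted p = 0.0493) rose in the lesion-only fit, calls lost without library 4, 6, 10, 12 or 14 for Gstm1 and without library 2, 4, 6, 10, 12 or 14 for Srxn1. Each of the 5 lost its 14-library call when some lesion library was left out, while Mgst1, Papss2, Mfge8 and Spsb4 stayed called in the lesion-only fit in every such case.

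Named by the rule of largest rise in the lesion-only fit, Lrrc27 was at 130.1, 84.1 and 96 in the non-ablated libraries and 840.3, 485, 546 and 598 in the ablated ones (2.56 ± 0.26, lesion-only adjusted p = 0.000985). Slc36a2, a proton-coupled amino acid transporter, was at 69.5, 78.3 and 122 in the non-ablated libraries and 446, 437, 589 and 625 in the ablated ones (2.56 ± 0.27, lesion-only adjusted p = 0.00109). F7, coagulation factor VII, was at 254, 384 and 338 in the non-ablated libraries and 1615, 1063, 947 and 1570 in the ablated ones (1.98 ± 0.25, lesion-only adjusted p = 0.00273). None of these overlapped, and each stayed called without any 1 library. Kcna5, a voltage-gated potassium channel, was at 92.1, 160.2 and 67.2 in the non-ablated libraries and 893, 381, 294 and 354 in the ablated ones (2.11 ± 0.42, lesion-only adjusted p = 0.031), a call lost without library 2, 6, 10 or 14. The other rises by that rule were Serpina12, Mybpc2, Pira1, Gapt, Scgb1a1 and Rgs18. Their counts in the non-ablated libraries were low, the highest being 15.4, 36.6 and 23.5 for Rgs18, and each call was kept in at most 2 of 7 cases when a library was left out. Cd24a, a small mucin-like surface protein of immature neural and blood cells, was at 1907, 2015 and 1170 in the non-ablated libraries and 7025, 5897, 6017 and 6033 in the ablated ones and rose in the lesion-only fit (1.91 ± 0.21, lesion-only adjusted p = 0.00119, chosen after its values were seen).

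Myelin, astrocyte and neuron genes were positive in fold change without calls in either limma fit. Every one of 18 myelin genes (median 0.57), 15 astrocyte genes (median 0.60) and 18 neuron genes (median 0.86) was positive, where all genes had a median of 0.01. Limma called 0 of them in either fit, while DESeq2 called 0 myelin, 0 astrocyte and 2 neuron genes and edgeR 0. Array weights gave 1 myelin, 3 astrocyte and 2 neuron calls. Without library 14 the lesion-only fit called 2 astrocyte and 2 neuron genes, and without library 10 the neuron median was 0.56. At an unadjusted p under 0.05 the lesion-only fit held 8 myelin, 5 astrocyte and 4 neuron genes, and 2354 of all 15637 tested genes. Mag, a myelin adhesion protein, was at 8802, 5936 and 6910 in the non-ablated libraries and 13936, 10528, 12271 and 8834 in the ablated ones, with groups that just did not overlap (0.66 ± 0.21, lesion-only adjusted p = 0.166). Gfap, the astrocyte filament, was at 51655, 36836 and 47196 in the non-ablated libraries and 88949, 78010, 85830 and 54359 in the ablated ones (0.75 ± 0.26, lesion-only adjusted p = 0.193). Snap25, a synaptic protein, was at 937, 512 and 165 in the non-ablated libraries and 202, 5902, 3329 and 922 in the ablated ones. Libraries 10 and 12 were far above the others, and the neuron list followed them, with deviations of 2.25 and 1.20 against 0.01 and 0.29 in libraries 8 and 14. Whether the share of neural tissue in the dissected pieces moved with ablation was not tested. Among progenitor genes, 11 of 12 were positive. Cspg4, the proteoglycan NG2 of oligodendrocyte progenitors and pericytes, was the exception. It was at 2660, 2598 and 2229 in the non-ablated libraries and 1498, 1164, 1160 and 1337 in the ablated ones and fell in the lesion-only fit (-0.96 ± 0.16, lesion-only adjusted p = 0.0139), while Pdgfra, the other defining progenitor marker, was at 2716, 2941 and 3043 in the non-ablated libraries and 3321, 2555, 4204 and 3722 in the ablated ones with overlapping groups. Emp1, a membrane protein of reactive astrocytes, rose there (1.14 ± 0.22, lesion-only adjusted p = 0.0288). Cspg4 lost its call without library 2, 4 or 10, and Emp1 without library 2, 4, 6, 10 or 12.

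All 25 proliferation genes had negative fold changes (median -0.71). The lesion-only fit called 1, a call lost without library 2, 4, 6, 10 or 12, while 3 were called without library 8 and 2 without library 14. At an unadjusted p under 0.05 the lesion-only fit held 15 of the 25, and 2354 of all 15637 tested genes. The 14-library fit called 0 and held 2 at an unadjusted p under 0.05, and 1128 of all tested genes. Mcm5, a subunit of the replicative helicase, was at 871, 1152 and 745 in the non-ablated libraries and 366, 393, 244 and 506 in the ablated ones (-1.31 ± 0.27, lesion-only adjusted p = 0.0348). Mki67, the proliferation marker Ki-67, was at 1186, 1139 and 692 in the non-ablated libraries and 282, 457, 192 and 923 in the ablated ones. Library 14 lay within the non-ablated range, and Mki67 passed neither fit (-1.33 ± 0.47, lesion-only adjusted p = 0.211). Top2a did not pass either (-1.14 ± 0.34, lesion-only adjusted p = 0.134).

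Set beside distal tissue from the same genotypes, 36 of the 41 genes that fell in lesions were negative there too, with a median of -1.11. The labels describe lesion and distal pieces of pooled mice, so both comparisons may share animals. By limma 7 of the 46 were also called in distal tissue (Cx3cr1, Csf1r, Fcgr1, Capn3, Cst7, Mef2c and Tal1). The shares of all tested genes that were negative or called in distal tissue are not given here. Neither count can therefore be set against a background. Fcgr1 had -2.23 ± 0.38 there and -2.22 in lesions. The difference between tissues was tested as an interaction. Of the 46, Cdhr3 passed that test, with -2.87 ± 0.48 in lesions and 1.94 ± 0.48 in distal tissue (interaction -4.80 ± 0.68, adjusted p = 0.0383). The Cdhr3 call was lost when any 1 of the 7 lesion libraries was left out. For Gas6 the distal value was -0.00 ± 0.16 (interaction adjusted p = 0.097), for Dyrk4 -0.15 ± 0.51 (adjusted p = 0.144), for Dab2 0.33 ± 0.25 (adjusted p = 0.209), and for Mfge8 -0.10 ± 0.22 (adjusted p = 0.183). The interaction of Cx3cr1 did not pass either, at -3.62 ± 0.51 in distal tissue and -4.16 in lesions (adjusted p = 0.972). Distal spread is larger, so a missed interaction does not show that both tissues respond alike.

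**Figure D5:**
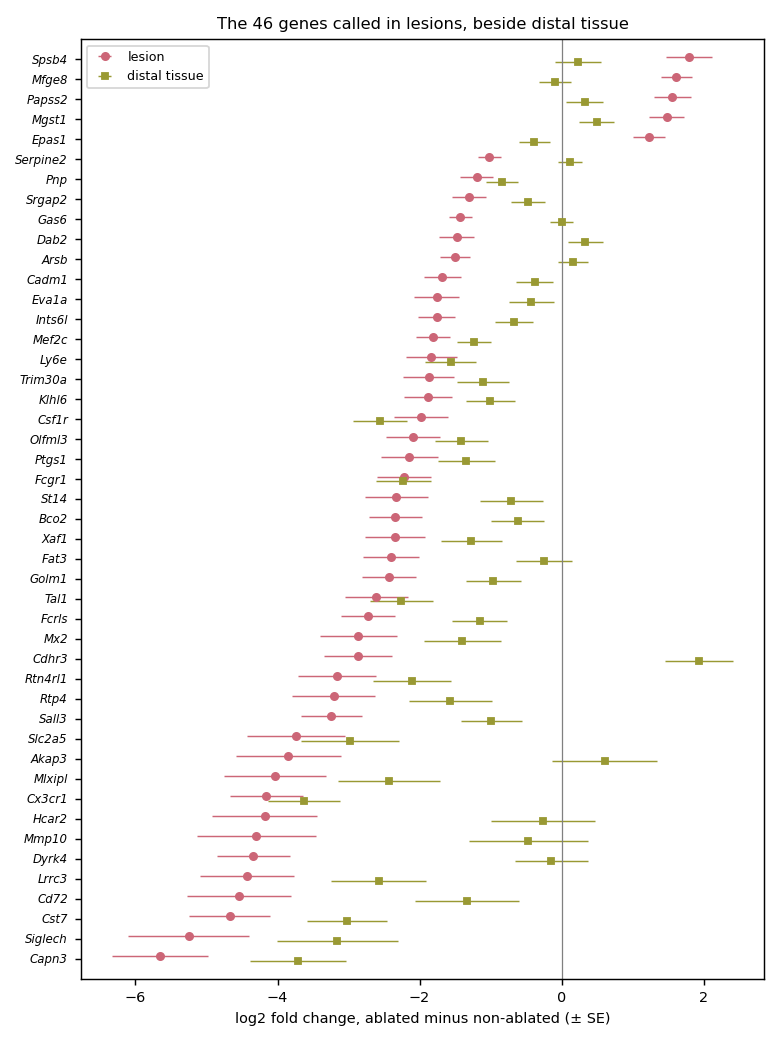
Log2 fold changes, ablated minus non-ablated, with standard errors, of the 46 called genes in lesions (circles) and in distal tissue (squares). Most genes that fell in lesions lie left of 0 in distal tissue as well, while Cdhr3 lies right of 0 there at 1.94. The share of all tested genes left of 0 in distal tissue is not given here.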

How the data were processed

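RNA from lesion and distal pieces of spinal cord was amplified by multiple displacement with a single-cell RNA kit and sequenced on a NextSeq instrument, per the labels' protocols. Per the submitters' processing notes, the tools were DESeq2, bcl2fastq and BWA 0.7.17.1 with build mm10. How reads were counted, on which strand and against which gene models was not given in the sources used here. Deposited values are counts the authors normalized with DESeq2, per the labels, used here as signal. They were whole multiples of 1 read within 0.01 for every lesion library. The libraries were amplified and the labels name no molecular identifiers, so reads may not stand for separate molecules.

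Genes with a value of at least 10 in at least 3 of 14 libraries (15637) were tested on log2(value + 1) with limma 3.58.1 (R 4.3.3, trended prior, Benjamini-Hochberg adjustment over all tested genes, 4 group means). The 7 lesion libraries alone were fitted as an alternative. edgeR 4.0.16 and DESeq2 1.42.0 were run on the recovered reads as further alternatives, and the code was tested on simulated data. Symbols that the table had turned into dates (27) or left blank (8) were taken from RefSeq by gene ID. Coordinates and upstream sequences are RefSeq's for GRCm38.p6.

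Named genes are those called over 14 libraries, the 12 largest falls and rises of the lesion-only fit, and, of each of 41 gene lists, its first 3 measured members and any called member; others, such as genes given for context in a pathway, were chosen after their values were seen. Some genes that this rule names are not reported here, though the counts and medians of their lists include them. The members and lists were chosen with earlier results of these data known. The libraries are separate samples by their labels, and p-values measure the spread between pools. Lesion and distal pieces may come from the same animals, and the 14-library and interaction fits treated all 14 libraries as independent.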

Additional observations from a re-analysis of the deposited data

Results flagged for a closer look

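Of 173 named genes tested in the 4 ablated lesion libraries, 21 had 1 library standing apart from the other ablated ones. It was library 8 for 13 genes, library 14 for 6 and library 10 for 2. The rule flags about 1 in 20 groups of independent, normally distributed values. These genes were tested as counts and share the same 4 libraries, so no excess over that rate can be read from the 21. The values are given with the range of the other 3 ablated libraries.

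Library 8 held 109133 normalized counts of Fcer1g against 33732 to 42519, 3347 normalized counts of Ccl7 against 662 to 1043, 152 normalized counts of Ccl12 against 36.8 to 47.9 and 609 normalized counts of Ly6c2 against 278 to 329. It also held 6654 normalized counts of Bst2 against 1803 to 2477, 2542 normalized counts of Tap1 against 1264 to 1437, 393302 normalized counts of Apoe against 313681 to 320200, 7025 normalized counts of Cd24a against 5897 to 6033, 893 normalized counts of Kcna5 against 294 to 381, 159 normalized counts of Ltc4s against 35.1 to 44, 55.1 normalized counts of Cd163 against 18.8 to 24.9 and 7.51 normalized counts of Cxcl13 against 0 to 0. It was low for a receptor of double-stranded RNA, with 67.6 normalized counts of Tlr3 against 151 to 166.

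Library 14 held 1831 normalized counts of Itgam against 834 to 940.5, 2363 normalized counts of Cd180 against 969 to 1123, 129 normalized counts of Hcar2 against 34.9 to 43.9, 581 normalized counts of Klhl6 against 318 to 362, 19408 normalized counts of Mfge8 against 15120 to 15394 and 6282 normalized counts of Emp1 against 3808 to 4024. Library 10 held 5051 normalized counts of Srxn1 against 2761 to 2835 and, as its low value, 7.98 normalized counts of Lrrc3 against 26.3 to 29.9.

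The effect of ablation on Cdhr3 differed between lesions and distal tissue by -4.80 ± 0.68 on the log2 scale (limma interaction, adjusted p = 0.0383). Cdhr3 was at 151, 198 and 149 in the non-ablated libraries and 21.3, 37.5, 12.5 and 22 in the ablated ones, so every ablated lesion library was below every non-ablated one, while its distal value was 1.94 ± 0.48. That call was lost when any 1 of the 7 lesion libraries was left out, without distal ablated library 9, with labelled age as a linear term, and with a filter at 50 or no filter.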

How the results depend on the processing

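The count of 46 genes was 46 with TMM and 47 with upper-quartile scaling, 41 with a pseudocount of 0.5 or a robust prior, 50 with no filter on low values, 44 with a filter at 50, and 47 with edgeR, of which 43 were shared. It moved to 416 with the 7 lesion libraries alone, 101 with quantile normalization, 98 with a pseudocount of 10, 1013 with array weights, 107 without distal ablated library 9 (the distal residual SD was then 0.557), 259 with DESeq2 and 2 with labelled age as a linear term. The share of calls that were higher, 10.9% in the main result, was 25.0% with the lesion libraries alone, 34.4% with DESeq2 and 45.4% with array weights. Leaving out 1 lesion library gave 5 to 36 calls over 14 libraries and 156 to 528, against 416, in the lesion-only fit, where quantile normalization gave 485 and edgeR 370. Of the 46 genes, 36 stayed called in the lesion-only fit whichever library was left out. The cause of these moves was not tested.

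The lesion and distal effects differed for 2 genes (Cdhr3 and Kif22), 885 at an unadjusted p under 0.05. The alternatives for this count were chosen after seeing the data. It was 3 with quantile normalization or a pseudocount of 10, 6 with array weights, 1 with a filter at 50 or the age term, 0 with no filter or without distal ablated library 9, and 0 to 1 without 1 lesion library. With the age term the fold changes of Acp5 (-0.16) and Gdf3 (-0.68) changed sign, and 44 named genes lost their call. Labelled age rises by 1 month per library and cannot be told apart from ablation.

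No paired analysis of ablated against non-ablated lesions was possible because the lesion groups share no replicate number. A pairing of lesion with distal pieces was not modelled. Low counts limit Akap3, Serpina12, Mybpc2, Pira1 and Cxcl13, and in ablated libraries also Siglech and Dyrk4.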
